A study of Homo sapiens with 2 samples.

Results

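The genes examined here were 10 effectors and secreted hormones of the integrated stress response, TRIB3, CHAC1, SESN1, SESN2, SESN3, DDIT4, NUPR1, GDF15, FGF21 and VLDLR. They were chosen by gene name from knowledge of the pathway, with earlier results of these data known. All 10 were found once in each of the deposited tables, among 23614 distinct gene names. RNA came from HEK293, a human embryonic kidney cell line, at passage 15 to 20. The WT library was made from wild-type cells and the PERK-KO library from cells in which EIF2AK3, the gene for the ER-resident kinase PERK, had been disrupted with CRISPR/Cas9. Cells of both genotypes had spent 12 h in OXPHOS medium, which is free of glucose and holds galactose and pyruvate so that ATP has to come from mitochondria. The study's methods describe seeding of single cells and testing of the resulting clones by immunoblotting, and do not say which clone or which guide RNA was used for sequencing. A property of the clone and an effect of PERK loss therefore cannot be told apart. Each genotype has 1 library, so there was no replicate error, no test was made and no p-value is given. No library of cells in glucose medium was analysed here.

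The integrated stress response begins when a kinase phosphorylates the translation initiation factor eIF2α, which slows protein synthesis in general and favours translation of the transcription factor ATF4. PERK is the kinase that answers to ER stress, and GCN2, PKR and HRI answer to amino acid shortage, viral RNA and haem or mitochondrial stress. ATF4, often with CHOP, switches on genes for amino acid supply and also several of the effectors described here. The effectors dampen AKT and mTORC1 signalling, consume glutathione or are secreted to act on other organs. Some, among them SESN1 and GDF15, can also be switched on by p53.

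Expression was given as FPKM, the number of fragments scaled to the length of the transcript and to the depth of the library. Because FPKM is scaled by length, levels of different genes can be set side by side, although the ratio of the libraries still moved with transcript length, which the order of levels does not take into account. The ranges after each level are the confidence limits deposited with it, and those after a ratio are 95% intervals computed from these limits. Both cover the counting error of the libraries and not the variation between cultures. A gene was counted as higher or lower when its ratio between the libraries exceeded 1.5-fold and it reached 1 FPKM in either library, as 14512 genes did. Positions are those of the tables, on GRCh37.

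Some values of the whole series touch these results. EIF2AK3 itself had an FPKM of 5.61 (5.11 to 6.12) in the WT library and 3.89 (3.44 to 4.34) in the PERK-KO library. FPKM counts a transcript whether or not it still encodes the kinase. Genes with transcripts under 1500 bases had a median log2 ratio of -0.28, and those of 4000 bases or more had 0.23. For this reason the median log2 ratio of the 500 genes nearest in transcript length is given beside each of the 9 genes above the filter, and the part of length in the results was not tested further. VIM and NEFL, which HEK293 cells are known to express, had FPKM values of 418 and 44.9 in WT cells and 378 and 33.4 in PERK-KO cells, while the liver, islet and brown fat markers ALB, INS and UCP1 were listed at 0 in both. Of 5 markers of the line 4 passed the filter, all but the kidney factor PAX2, at 0.981 and 0.748. Of these NEFM differed most, with 0.662 and 5.21. LHX1, another marker of the line, was lower by more than 1.5-fold, with 4.65 (4.11 to 5.19) and 2.88 (2.43 to 3.33). The confidence limits were separate in 1 of the 4 that was higher and in 3 that were lower, against 26.1% and 18.7% of all genes. Of 7 markers of other tissues 2 passed, PECAM1 with 1.35 and 1.36 and ADIPOQ with 1.68 and 1.42. The part of these differences in the results was not tested.

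Of the 10 genes, 9 passed this filter and FGF21 did not. CHAC1 and SESN2 were higher in PERK-KO cells by more than 1.5-fold, NUPR1 and GDF15 were lower by more than 1.5-fold, and the other 5 lay within that limit. Among all genes that passed the filter, 10.1% were higher and 7.51% were lower. When the confidence limits were compared instead, they did not overlap in 4 genes that were higher (CHAC1, SESN2, SESN3 and TRIB3) and in 3 that were lower (NUPR1, GDF15 and SESN1). The same was true of 26.1% and 18.7% of all genes. The median log2 ratio of PERK-KO over WT was 0.17 for the 9 genes and 0.04 for all genes. The genes of this group thus moved in both directions, with a range of log2 ratios from -0.98 to 1.08.

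**Figure D1:**
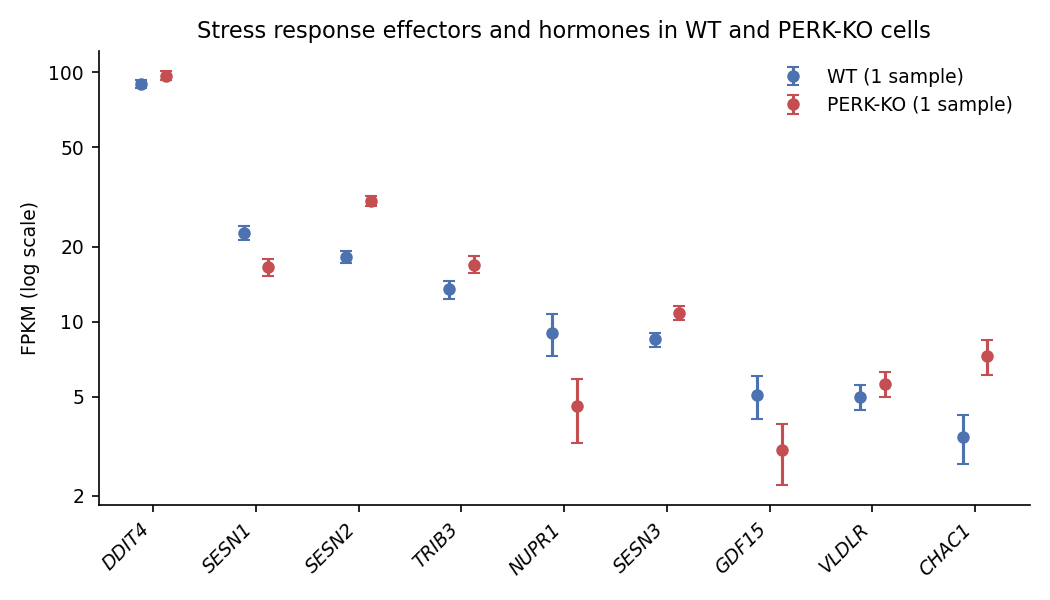
FPKM (log scale) of the 9 genes above the filter in WT and PERK-KO cells, ordered by the WT level. Points are single libraries and bars are the deposited confidence limits. DDIT4 was the most abundant in both, CHAC1 and SESN2 sat higher in PERK-KO cells, and NUPR1 and GDF15 sat lower.

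In WT cells the order of levels was DDIT4, SESN1, SESN2, TRIB3, NUPR1, SESN3, GDF15, VLDLR and CHAC1. NUPR1 and SESN3 had overlapping limits there, as did GDF15 and VLDLR. In PERK-KO cells the order was DDIT4, SESN2, TRIB3, SESN1, SESN3, CHAC1, VLDLR, NUPR1 and GDF15. TRIB3 and SESN1 could not be separated by their limits, nor could CHAC1 from VLDLR, VLDLR from NUPR1 or NUPR1 from GDF15. DDIT4 lay above 91.5% of the genes that passed the filter in WT cells and above 93.0% in PERK-KO cells. CHAC1 lay above 24.4% and 40.5%, and NUPR1 above 48.7% and 29.1%. CHAC1 was last among the 9 genes in WT cells and sixth in PERK-KO cells, and GDF15 was last in the latter.

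**Figure D2:**
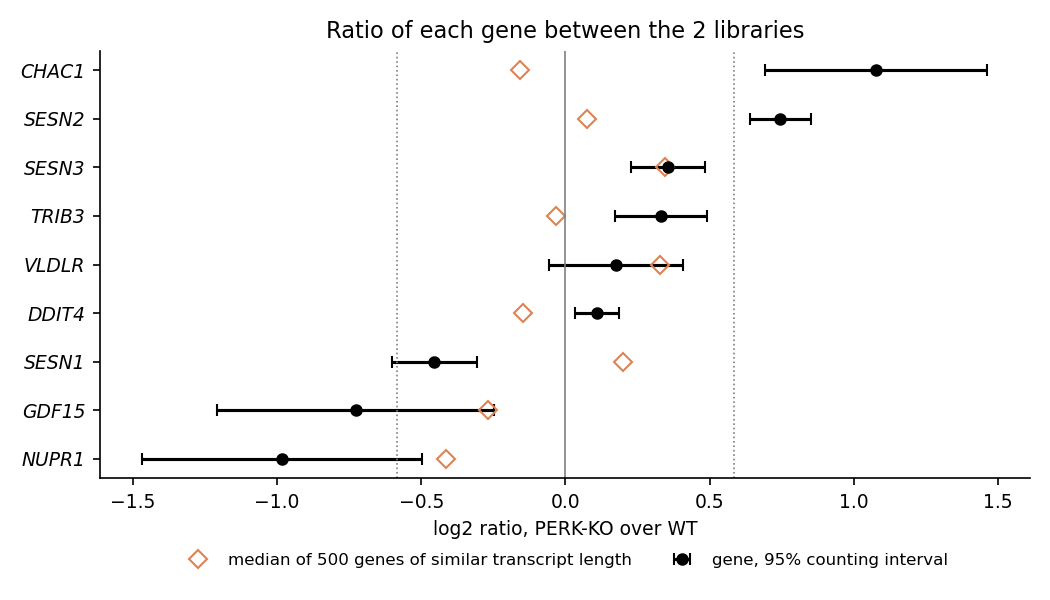
Log2 ratio of PERK-KO over WT for the 9 genes, with 95% counting intervals (bars). Dotted lines mark 1.5-fold in either direction, and open diamonds give the median of the 500 genes of most similar transcript length. CHAC1 and SESN2 lie right of the dotted line and of their diamond, and SESN1 lies left of a diamond that is above 0.

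ATF4 acts through a composite element, bound together with C/EBP factors, whose common form is TGATGCAA. This sequence was searched on both strands, as TGATGCAA or its reverse complement TTGCATCA, within 1000 bases on either side of the annotated transcript start (GENCODE 44 on GRCh37). It was found in 730 of 19807 protein-coding genes, or 3.69%. Of the 9 genes looked up, 6 held it, namely CHAC1, TRIB3, SESN2, DDIT4, VLDLR and FGF21, and 3 did not, namely SESN1, SESN3 and GDF15. NUPR1, the gene of the group with the lowest ratio, has no entry in the RefSeq promoters used below. It was left out for that reason, and whether the sequence lies near its start is not reported here. In the shorter RefSeq promoters (GRCh38.p14, 250 bases upstream to 50 downstream of the start), 0.866% of 35116 entries held the sequence, and among the 9 genes only CHAC1 and FGF21 did. A match says that these letters are present and not that ATF4 is bound there. Only this exact sequence was searched, so the lack of a match does not mean that no ATF4 element is there.

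The matching stretches are shown so that the element can be read in its context in each gene. The motif was chosen after the values of these genes had been seen, and the start of a single transcript per gene was searched, although SESN1 has 3 and SESN3 has 2 start sites in the deposited tables. All are written 5′ to 3′ on the plus strand of GRCh37, on which all 6 genes are transcribed, with the element in capitals. The stretch of CHAC1 (chr15:41245419-41245518) and that of FGF21 (chr19:49258681-49258780) lie upstream of the start, those of DDIT4 (chr10:74032725-74032754) and VLDLR (chr9:2621338-2621367) lie farther upstream, that of TRIB3 (chr20:361525-361554) lies in an untranslated exon and that of SESN2 (chr1:28586570-28586599) lies in an intron.
CHAC1: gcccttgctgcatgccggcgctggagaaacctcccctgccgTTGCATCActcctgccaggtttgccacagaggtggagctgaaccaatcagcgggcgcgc
FGF21: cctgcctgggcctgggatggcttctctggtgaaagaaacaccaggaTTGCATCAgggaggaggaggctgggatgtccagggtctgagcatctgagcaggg
TRIB3: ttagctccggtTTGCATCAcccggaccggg
SESN2: cgggacccgggTTGCATCAactggcagccg
DDIT4: gtcctcggtccTGATGCAAccgtctggatc
VLDLR: agcaacgatagTTGCATCAgcgctaactgc

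TRIB3 held 3 copies of the element, 33 bases apart, and the 30 bases around each copy were identical. Counted in bases from the transcript start, with upstream negative, the element lay at -209 in CHAC1, at -54 in FGF21, at -438 in VLDLR and at -942 in DDIT4. In SESN2 it lay at 553 and in TRIB3 at 133, 166 and 199. The start used for FGF21 lies upstream of its locus in the deposited tables. On the coding strand it read TTGCATCA in all of these except DDIT4. The 6 genes did not share 1 level of expression or 1 ratio. They ran from the most abundant gene of the group to one that was barely detected, and from a ratio of 2.11 for CHAC1 to 1.08 for DDIT4. The limits of DDIT4 and VLDLR overlapped between the libraries.

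**Figure D3:**
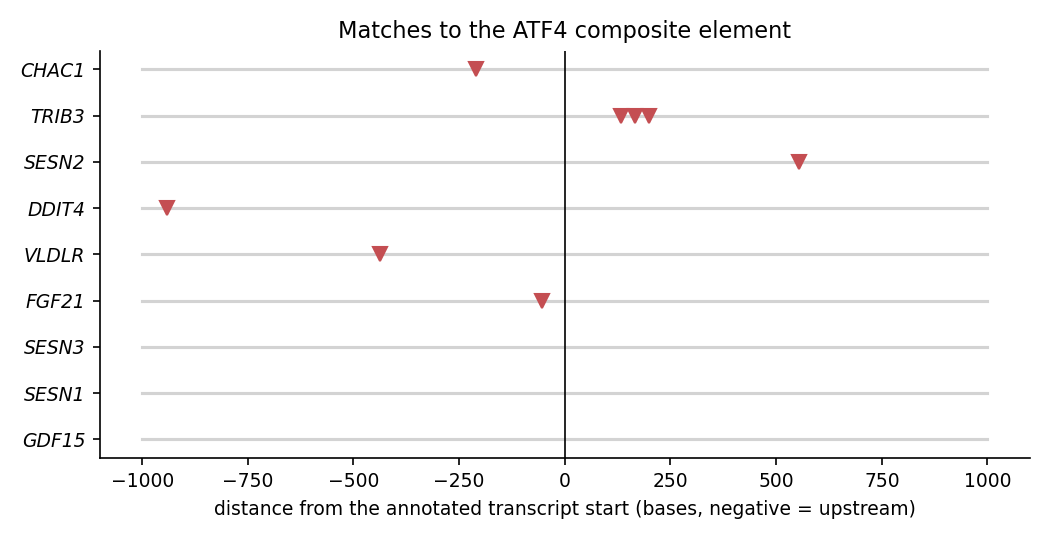
Positions of TGATGCAA or its reverse complement (triangles) within 1000 bases of the annotated transcript start in the 9 genes looked up. The x axis is the distance from the start in bases, with upstream negative. TRIB3 carries 3 copies after its start, and SESN3, SESN1 and GDF15 carry none.

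CHAC1 encodes a γ-glutamyl cyclotransferase that breaks down glutathione, and lies on chromosome 15 from 41245636 to 41248717. Its FPKM was 3.44 (2.68 to 4.21) in WT against 7.26 (6.12 to 8.41) in PERK-KO cells. The limits were far apart, and the ratio of 2.11 (1.62 to 2.76) was the highest of the group, above that of 97.8% of all genes. The widths of the limits correspond to 81.0 fragments in the WT library and 160.0 in the PERK-KO library, so the gene was measured on modest numbers. Its log2 ratio was 1.08, whereas genes of like length had a median of -0.16.

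Its relative CHAC2, which has the same activity and is known as the constitutive form, went the other way. It had an FPKM of 7.89 (6.68 to 9.11) in WT against 5.48 (4.40 to 6.56) in PERK-KO cells. In WT cells CHAC2 was thus the more abundant of the pair, and in PERK-KO cells CHAC1 had the higher value with limits that overlapped. The ratio of CHAC2, 0.694, lay within 1.5-fold. Genes of like length had a median log2 ratio of -0.22, and less that median CHAC2 was at -0.30 with limits no longer separate. CHAC2 is named after its values were seen. Among the 5 glutathione enzymes above the filter, 1 was lower by more than 1.5-fold and none was higher, against 7.51% and 10.1% of all genes. The limits were separate in 2 that were higher and 3 that were lower, against 26.1% and 18.7% of all genes. The 2 higher genes were GCLM and GCLC, with ratios of 1.48 and 1.31. The gene beyond 1.5-fold was GGCT, which acts on the γ-glutamyl products of glutathione turnover, with 98.7 in WT against 54.6 in PERK-KO cells. The median log2 ratio of these 5 genes was -0.19.

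TRIB3 encodes a pseudokinase that binds AKT and is induced by ATF4 and CHOP. It lies on chromosome 20 from 361308 to 378203. Its FPKM was 13.5 (12.4 to 14.6) in WT against 17.0 (15.6 to 18.3) in PERK-KO cells. The limits did not overlap, but the ratio of 1.26 (1.13 to 1.40) was smaller than that of CHAC1 and stayed inside 1.5-fold. Genes of similar length had a median log2 ratio of -0.03, against 0.33 for TRIB3. Its relatives went in different directions. TRIB2 was lower in PERK-KO cells, with 9.75 (8.89 to 10.6) in WT against 5.38 (4.79 to 5.98) in PERK-KO cells. TRIB1 was higher with separate limits but within 1.5-fold, with 8.94 (8.21 to 9.66) and 10.7 (9.88 to 11.6).

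The sestrins restrain mTORC1, SESN2 as a leucine sensor that binds and inhibits the GATOR2 complex when leucine is scarce. SESN2 is known as the ATF4-responsive gene of the family, SESN1 as a p53 target and SESN3 as a target of FOXO factors. SESN2, on chromosome 1 from 28585963 to 28609002, had an FPKM of 18.2 (17.2 to 19.3) in WT against 30.5 (29.1 to 32.0) in PERK-KO cells. The ratio was 1.68 (1.56 to 1.80), and it rested on 1220 and 1797 fragments, the firmest of the large differences. Its log2 ratio of 0.75 compared with a median of 0.07 in genes of similar length.

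SESN1, on chromosome 6 from 109307640 to 109415708, had 22.7 (21.2 to 24.3) in WT against 16.6 (15.3 to 17.9) in PERK-KO cells. The limits did not overlap, and the gene was 1.37-fold lower in PERK-KO cells. Its transcripts are long, and genes of similar length had a median log2 ratio of 0.20, so the difference from such genes was -0.65 on the log2 scale, larger than the difference between the libraries (-0.45). SESN3, on chromosome 11 from 94898677 to 94965705, was higher in PERK-KO cells, like SESN2. Its FPKM was 8.49 (7.94 to 9.03) in WT against 10.9 (10.2 to 11.5) in PERK-KO cells, and the ratio was 1.28 (1.17 to 1.40). Here the log2 ratio of 0.36 was matched by a median of 0.34 in genes of similar length, and the difference between them was 0.013, with which the limits were no longer separate.

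The most abundant sestrin therefore differed between the libraries. In WT cells SESN1 made up 46.0% of the summed sestrin FPKM, SESN2 36.9% and SESN3 17.2%. In PERK-KO cells the shares were 28.6%, 52.7% and 18.7%. The quotient of SESN2 over SESN1 was 0.801 (0.735 to 0.874) in WT against 1.84 (1.68 to 2.02) in PERK-KO cells, a 2.30-fold difference that does not depend on how the libraries were scaled. The sum of the 3 genes was 49.5 (47.6 to 51.4) and 58.0 (56.0 to 60.0), which is a ratio of 1.17.

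**Figure D4:**
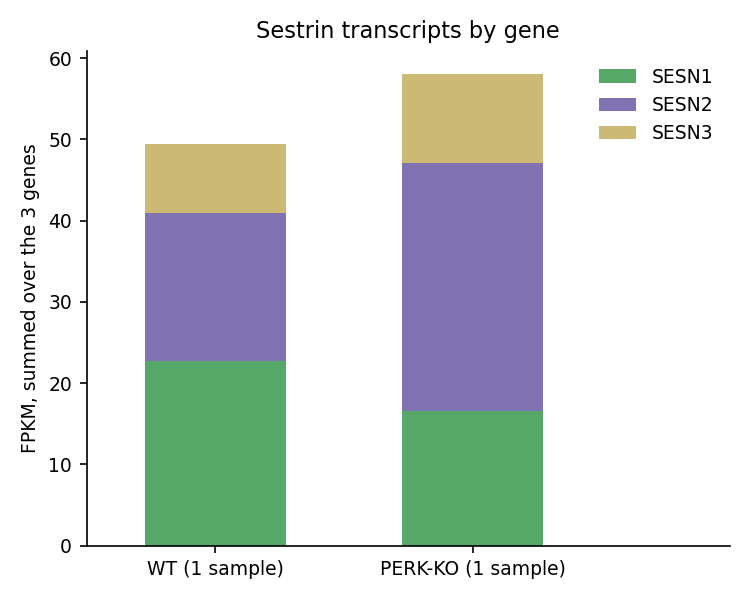
FPKM of SESN1, SESN2 and SESN3 stacked for the WT and PERK-KO libraries (1 sample each, counting limits not drawn). SESN1 is the largest segment in WT cells and SESN2 in PERK-KO cells, and the summed height is 49.5 and 58.0.

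DDIT4, also called REDD1, inhibits mTORC1 through the TSC complex and is induced by ATF4, by hypoxia and by glucocorticoids. It lies on chromosome 10 from 74033677 to 74035797. With an FPKM of 90.0 (86.7 to 93.4) in WT against 97.2 (93.4 to 100.9) in PERK-KO cells it was the most abundant gene of the group. The limits overlapped narrowly, and the ratio of 1.08 had an interval of 1.02 to 1.14. At a depth of 2818 and 2663 fragments, a 1.5-fold difference between the libraries lies outside the counting error. Genes of similar length had a median log2 ratio of -0.15, and that of DDIT4 was 0.11. Its relative DDIT4L was near 1 FPKM in both libraries, with 1.04 and 1.02.

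Sestrins and DDIT4 both act on mTORC1. Among 20 genes of mTORC1 and its amino acid sensing, 2 were higher by more than 1.5-fold and 18 were within it, with a median log2 ratio of 0.08. The share of all genes that were higher was 10.1%. The limits were separate in 6 that were higher and 3 that were lower, against 26.1% and 18.7% of all genes. The genes beyond 1.5-fold were MTOR, the kinase, with 7.44 (6.92 to 7.96) in WT against 13.7 (12.9 to 14.5) in PERK-KO cells, and RPTOR, its substrate adaptor, with 7.62 (7.08 to 8.16) and 11.8 (11.1 to 12.6). Both have long transcripts, and genes of similar length had medians of 0.32 and 0.25, against log2 ratios of 0.88 and 0.63. Less these medians both lay within 1.5-fold (0.56 and 0.38), SEC13 and GATSL3 lay beyond it (0.66 and 0.65, the limits of the latter overlapping), and with a pseudocount of 1 there was 1 gene beyond it.

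NUPR1 encodes a small chromatin-associated stress protein and was the gene of the group with the lowest ratio. It lies on chromosome 16 from 28548662 to 28550495. Its FPKM was 9.03 (7.30 to 10.7) in WT against 4.57 (3.26 to 5.88) in PERK-KO cells, 1.98-fold lower. The ratio of 0.506 (0.362 to 0.709) lay below that of all but 1.73% of genes. It rested on 110.0 and 49.0 fragments. The transcript is short (550 bases), and genes of similar length were themselves lower, with a median log2 ratio of -0.41 against -0.98 for NUPR1. Less that median it lay within 1.5-fold (-0.57) and its limits were no longer separate. The related NUPR1L was near the limit of detection, with 1.62 and 0.853 and overlapping limits.

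GDF15 is a secreted hormone of the TGF-β superfamily that reduces food intake through the receptor GFRAL in the brainstem, and it is a circulating marker of mitochondrial disease. It lies on chromosome 19 from 18496968 to 18499986. Its FPKM was 5.06 (4.06 to 6.07) in WT against 3.06 (2.22 to 3.90) in PERK-KO cells, 1.65-fold lower. The limits were separated by a small margin, with 101 and 52.8 fragments behind the values, and the ratio of 0.604 had an interval of 0.433 to 0.843. Genes of similar length had a median log2 ratio of -0.27 against -0.73 for GDF15. Less that median it lay within 1.5-fold (-0.46) and its limits were no longer separate, and with a pseudocount of 1 it also lay within 1.5-fold (-0.58). A microRNA row, MIR3189, lies inside GDF15 and was listed at 0 in both libraries.

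FGF21, the other hormone, is released mainly by liver and acts on cells with the co-receptor β-Klotho. It lies on chromosome 19 from 49259344 to 49261582. It was listed at 0 in WT cells and at 0.248 (0 to 0.535) in PERK-KO cells, which corresponds to 3 fragments. The smallest level taken as detectable, 3 fragments, was 0.218 FPKM in the WT library and 0.248 in the PERK-KO library. FGF21 was therefore not detectable in WT cells and at the limit in PERK-KO cells, and no fold difference is given. CHAC1 and FGF21, which both hold the element in the region just upstream of the start, thus had very different levels.

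Of the genes for the receptors of these hormones, GFRAL and KLB were also present at low levels. GFRAL was listed at 2.21 (1.70 to 2.72) in WT against 1.94 (1.43 to 2.46) in PERK-KO cells, and KLB, which encodes β-Klotho, at 1.51 (1.28 to 1.74) and 1.71 (1.45 to 1.97). The limits of each overlapped between the libraries. Both are named after their values were seen. Of the 11 receptor and ligand genes examined 7 passed the filter, and none was higher by more than 1.5-fold. RET, the signalling partner of GFRAL, was lower by more than 1.5-fold with overlapping limits (1.48 and 0.978), a call that ended with a pseudocount of 0.1. Among all genes, 10.1% were higher and 7.51% were lower. The limits were separate in 1 of the 7 that was higher and in none that was lower, against 26.1% and 18.7% of all genes. That gene was FGFR1, with 17.5 (16.5 to 18.6) in WT against 21.7 (20.6 to 22.8) in PERK-KO cells. Its log2 ratio was 0.31, and genes of similar length had a median of 0.20. FGFR1 is likewise named after its values were seen.

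VLDLR encodes a receptor for triglyceride-rich lipoproteins and reelin and is induced by ATF4 under ER stress. It lies on chromosome 9 from 2621793 to 2654485. Its FPKM was 4.997 (4.41 to 5.58) in WT against 5.64 (4.99 to 6.28) in PERK-KO cells. The limits overlapped, and the ratio of 1.13 had an interval from 0.961 to 1.33, so a difference could not be shown at this depth. Genes of similar, long transcripts had a median log2 ratio of 0.33, above the 0.17 of VLDLR. An RNA row on the same locus, FLJ35024, overlaps the gene by 581 bases and was listed at 0 and 0.415.

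The effectors were then set beside other genes linked to ATF4, among them ATF4 itself and phosphatase regulators, so not all of them are its targets. Of 37 such genes in the lists for enzymes, transporters, transcription and phosphatase factors, and other targets, 22 were higher in PERK-KO cells by more than 1.5-fold, none was lower and 15 were within that limit, against 10.1% higher among all genes. The confidence limits did not overlap in 32 of the 37, all higher, against 26.1% higher among all genes. Their median log2 ratio was 0.64, compared with 0.17 for the 9 effectors and hormones and 0.04 for all genes, and after subtraction of the median of genes of similar length it was 0.65. All gene lists used here were chosen with earlier results of these data known. Counts set beside the share of all genes therefore describe the lists and are not tests.

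Among 12 enzymes of amino acid and one-carbon metabolism 9 were higher, against 10.1% of all genes. ALDH1L2, a mitochondrial folate enzyme, had 1.27 (1.07 to 1.46) in WT against 6.14 (5.63 to 6.65) in PERK-KO cells (ratio 4.84). CBS and CTH, which convert homocysteine to cysteine, had ratios of 3.24 and 2.78, and asparagine synthetase, ASNS, had 2.42. Among 6 transporters 5 were higher, against the same share of all genes. SLC7A11, which imports cystine for glutathione synthesis, had 2.35 and 7.86, a ratio of 3.34, and SLC6A9, SLC7A5 and SLC7A1 had ratios of 2.78, 1.90 and 1.87.

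Upstream of the effectors, ATF4 mRNA was 342 (326 to 358) in WT against 506 (483 to 528) in PERK-KO cells (ratio 1.48). DDIT3, which encodes CHOP, had 58.2 (53.7 to 62.8) and 66.2 (61.1 to 71.4) with overlapping limits. Genes of similar length had median log2 ratios of -0.19 and -0.36, against 0.56 for ATF4 and 0.19 for DDIT3. Less these medians ATF4 lay beyond 1.5-fold (0.75), and DDIT3 lay within it (0.55) with limits that were separate. Of the 9 factors and phosphatase regulators 3 were higher, against 10.1% of all genes. They were ATF3, PPP1R15A and PPP1R15B, with ratios of 1.55, 1.54 and 1.63. The latter 2 encode subunits of the phosphatases that reverse eIF2α phosphorylation. With the median log2 ratio set to 0, 2 of the 9 were higher, and with a 2-fold limit none was. Of 10 other targets 5 were higher, against the same share of all genes. The hormone STC2 had the largest ratio, 3.27, from 3.72 to 12.2, and XPOT, WARS and AARS had ratios of 1.76, 1.62 and 1.59. Less the median of genes of similar length, SLC7A1, PPP1R15B and XPOT among the named genes counted as higher lay within 1.5-fold (0.58, 0.52 and 0.55).

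The remaining eIF2α kinases lay within 1.5-fold. EIF2AK4 (GCN2) had 14.8 (14.1 to 15.6) in WT against 17.97 (17.1 to 18.8) in PERK-KO cells. EIF2AK2 (PKR) had 10.8 (9.98 to 11.6) and 13.2 (12.2 to 14.2), and EIF2AK1 (HRI) had 49.4 and 48.6. The limits of EIF2AK4 and EIF2AK2 were separate, as in 26.1% of all genes that were higher, and those of EIF2AK1 overlapped. Genes of similar length had median log2 ratios of 0.20 and 0.34, against 0.28 for EIF2AK4 and 0.29 for EIF2AK2. The levels given are of mRNA, and kinase activity was not measured in these files.

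Because SESN1 and GDF15 are also p53 targets, 15 other genes known to be induced by p53 were examined. HEK293 cells carry adenoviral genes, including E1B, whose product binds p53. Of the 15 genes, 4 were lower in PERK-KO cells by more than 1.5-fold, none was higher and 11 were within the limit, against 7.51% lower among all genes. A ratio below 1 was seen in 13 of them, and in 6735 of the 14512 genes that passed the filter. The limits were separate in 9 that were lower and in none that was higher, against 18.7% and 26.1% of all genes. The 2 with a ratio above 1 were MDM2, with 48.0 in WT and 50.2 in PERK-KO cells, and AEN, with 41.3 and 42.5. The limits of both overlapped. FDXR, a mitochondrial reductase, had 52.1 in WT and 24.2 in PERK-KO cells, with separate limits. FAS, a death receptor, had 9.15 and 5.26, BAX, which permeabilizes mitochondria, had 318 and 185, and CDKN1A, the cell cycle inhibitor p21, had 119 and 75.3. The median log2 ratio of the list was -0.31, and after subtraction of the median of genes of similar length it was -0.40. Genes with transcripts as short as those of BAX had a median of -0.38 against -0.78 for BAX, and less that median it lay within 1.5-fold (-0.40).

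For DDIT4 and SESN3, lists of hypoxia and FOXO targets were examined in the same way. Of 16 hypoxia targets above the filter 3 were higher by more than 1.5-fold and none was lower, against 10.1% and 7.51% of all genes. The limits were separate in 10 that were higher and in none that was lower, against 26.1% and 18.7% of all genes. The median log2 ratio was 0.33. The 3 beyond 1.5-fold were HK2, SLC2A1 and EGLN1. HK2 and SLC2A1, which trap and import glucose, had 10.1 and 24.8 in WT cells and 19.9 and 44.02 in PERK-KO cells. EGLN1, an oxygen-sensing hydroxylase, had 14.8 and 25.9. CA9, usually among the most responsive hypoxia targets, was listed at 0 in WT cells and at 0.167 in PERK-KO cells, the latter from 4 fragments, and did not pass the filter. Of 10 FOXO targets 1 was lower and none was higher, against 7.51% and 10.1% of all genes, with a median of 0.03. The limits were separate in 2 that were higher and 1 that was lower, against 26.1% and 18.7%. The gene beyond 1.5-fold was PDK4, which was near 1 FPKM and whose limits overlapped.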

How the data were processed

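Per the labels and the study's methods, polyadenylated RNA was sequenced, reads were mapped to GRCh37/hg19 (TopHat2 2.0.13), and the authors computed FPKM with Cufflinks 2.2.1 and Cuffdiff, with lower and upper confidence limits. They deposited 25277 rows per library; file names say RPKM, the headers FPKM. The gene annotation used is not given in the sources used here, and read counts were not analysed here. Of rows with the same name, the highest was used. The ratio was PERK-KO over WT without a pseudocount. The confidence limits were read as 2 SD on either side, which gives the fragment numbers and the 95% intervals. Transcript lengths came from GENCODE 44 transcripts at the same locus (94.7% of genes above the filter), and older gene names were matched through RefSeq synonyms. The genes, lists and motif were chosen with earlier results of these data known. From each list, up to 4 genes beyond 1.5-fold with separate limits are named. The library kit was not directional, so overlapping genes on opposite strands cannot be separated. Calculations were tested on simulated data (Python 3.11.15, numpy 2.4.6, pandas 2.3.3, matplotlib 3.10.9).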

Additional observations from a re-analysis of the deposited data

How the results depend on the processing

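No paired analysis was possible because each genotype has a single library, and for the same reason no library could be left out. Of 10 alternatives, 5 could change the log2 ratio of one of the 9 genes, and of the 45 values they gave 41 stayed within the counting interval. No gene with separate limits changed direction. The 4 that moved were all with the running median over transcript length subtracted, where SESN1 was -0.65, SESN3 0.013, DDIT4 0.26 and VLDLR -0.15. With that subtraction 1 gene of the group was lower by more than 1.5-fold, SESN1 in place of NUPR1 and GDF15, 1 was lower with separate limits, 4 were higher with separate limits (DDIT4 in place of SESN3), and the median log2 ratio was 0.013. A pseudocount of 1 left 1 gene lower, NUPR1. With a 2-fold limit 1 gene of the group was higher, 0 were lower, 8 ATF4-linked genes were higher and 1 p53 target was lower, since fewer genes can pass it. Other filters, a pseudocount of 0.1, rescaling by the median or the 75th percentile and summing of rows with the same name left these counts within 1.5 times. Counts of 1 or 2 genes in the smaller lists were less stable, and the single receptor gene that was lower, RET, was lost when 1 FPKM was required in both libraries or 5 in one, and with a pseudocount of 0.1 or 1. Rescaling by the median shifted log2 ratios by 0.04. CHAC1, NUPR1 and GDF15 rest on the fewest fragments of the 9 genes, and 3 fragments set the limit for FGF21.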
